A study of Homo sapiens with 32 samples.

Results

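The start sites of MLPH and MYADM are described here, as measured by cap analysis of gene expression (CAGE), which counts the capped 5′ ends of RNAs at the positions where transcription began. MLPH encodes melanophilin, an adaptor that ties the small GTPase RAB27A on melanosomes and other organelles to the actin motor myosin Va, and MYADM encodes a membrane protein with MARVEL domains, which is found at cholesterol-rich patches of the plasma membrane. Androgens are steroid hormones that change the transcription of their target genes in prostate cells. Direct targets often respond within hours, and other genes change later. The member sites were chosen by position, as all rows of 2 deposited tables whose start position lay in a window of 72 kb around MLPH on either strand or of 12 kb around MYADM on the plus strand. Both loci had been picked because sites in them were near 0 at 3 h and 6 h of the androgen R1881 and high at 48 h and 72 h, so these values are given as a description without a test. The windows took 10 of the 19534 sites of the first table and 4 of the 13294 sites of the second, or 14 of 32828 over both, and all 4 names of the second table were also in the first.

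The first table held 14 libraries of LNCaP, an androgen-responsive human prostate cancer line, at 0, 3, 6, 12, 18, 48 and 72 h with R1881, a synthetic androgen, with 2 libraries at each time. The sample characteristics give R1881 at 1 nM, whereas a protocol text shared by all samples names 10 nM for 24 h, and which of the doses was used is not settled. The second table held 18 libraries, 9 of LNCaP and 9 of BicR, a further prostate cancer line (the labels do not explain its name), with 1 library for each condition. These were untreated cells at 0 h and cells at 6 h and 24 h with ethanol, with 10 nM dihydrotestosterone (DHT, a natural androgen), with 1 µM bicalutamide (a drug that opposes androgens), or with DHT and bicalutamide together. All cells of both tables were first held for 3 days in medium with charcoal-treated serum, which is low in steroid hormones. No library with vehicle was taken after 0 h in the time course, so the time with R1881 and the time in culture cannot be told apart. The labels do not say that libraries came from separate cultures, and p-values then measure only the spread between these libraries. These are bulk libraries, in which more RNA per cell and more cells that make it cannot be told apart.

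The libraries differed in depth. The tables held 128463 to 3837493 tags per library in the time course and 4139807 to 7753336 in the second table, and 1 tag was worth from 0.230 to 6.48 RPM (reads scaled to a common library total) in the time course. The 6 h and 18 h libraries stood apart, with a median correlation with the other libraries of 0.631 to 0.686, against 0.744 to 0.816 for the rest. The replicate 1 libraries of those times were the shallowest. Markers were looked up in windows set by hand from general knowledge of the hg19 genome. Sites were found for 4 luminal prostate markers (KLK3, KLK2, TMPRSS2 and HOXB13), whose summed level was 2170 to 16700 RPM in the time course and 539 to 3060 RPM in the second table. No site was listed for KRT5, TP63 (both basal) or PTPRC (leukocyte), and the summed level of the 2 mesenchymal markers, COL1A1 and VIM, was 4.97 to 31.3 RPM in the time course. In the second table these 2 genes summed to 31.4 to 49.4 RPM in LNCaP and 47.9 to 170 RPM in BicR. VIM, an intermediate filament gene, was at 162 RPM in BicR cells given DHT together with bicalutamide for 6 h, against 42.3 to 67.2 RPM in the other BicR libraries, and results that rest on that library are given with and without it.

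RefSeq lists 2 start positions for MLPH and 3 for MYADM. All 5 promoters are shown because the results turn on which start was used. Each holds the 250 bases before an annotated start and the 50 from it on, on the plus strand of GRCh38.p14. The capitals mark matches, on either strand, to 2 short motifs. These were the GC box, with the letters GGGCGG, and a TATA motif, searched as TATAAA. A match to the other strand shows the reverse complement in capitals.
MLPH promoter 1, chr2:237486160-237486459: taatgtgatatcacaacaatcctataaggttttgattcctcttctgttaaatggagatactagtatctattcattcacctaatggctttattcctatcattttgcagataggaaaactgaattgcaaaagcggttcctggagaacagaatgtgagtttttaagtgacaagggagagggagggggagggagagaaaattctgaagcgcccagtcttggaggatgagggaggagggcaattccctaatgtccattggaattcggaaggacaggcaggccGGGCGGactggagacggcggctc
MLPH promoter 2, chr2:237487001-237487300: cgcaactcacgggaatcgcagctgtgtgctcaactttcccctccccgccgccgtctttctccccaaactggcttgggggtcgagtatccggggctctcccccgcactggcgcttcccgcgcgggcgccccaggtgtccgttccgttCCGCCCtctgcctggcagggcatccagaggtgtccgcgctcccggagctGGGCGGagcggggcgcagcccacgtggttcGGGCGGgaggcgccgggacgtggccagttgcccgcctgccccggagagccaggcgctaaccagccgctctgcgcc
MYADM promoter 1, chr19:53866121-53866420: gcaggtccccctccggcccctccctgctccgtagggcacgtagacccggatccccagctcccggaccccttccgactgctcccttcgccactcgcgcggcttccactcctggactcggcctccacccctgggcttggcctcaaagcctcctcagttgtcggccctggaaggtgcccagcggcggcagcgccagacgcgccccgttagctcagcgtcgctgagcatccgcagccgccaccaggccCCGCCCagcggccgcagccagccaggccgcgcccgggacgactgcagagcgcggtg
MYADM promoter 2, chr19:53867633-53867932: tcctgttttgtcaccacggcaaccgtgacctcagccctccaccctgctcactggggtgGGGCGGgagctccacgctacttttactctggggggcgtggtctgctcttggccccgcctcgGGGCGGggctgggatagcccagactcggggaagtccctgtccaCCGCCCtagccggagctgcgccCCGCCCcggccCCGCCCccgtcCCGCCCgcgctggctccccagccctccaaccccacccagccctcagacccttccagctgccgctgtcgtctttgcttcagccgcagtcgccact
MYADM promoter 3, chr19:53869141-53869440: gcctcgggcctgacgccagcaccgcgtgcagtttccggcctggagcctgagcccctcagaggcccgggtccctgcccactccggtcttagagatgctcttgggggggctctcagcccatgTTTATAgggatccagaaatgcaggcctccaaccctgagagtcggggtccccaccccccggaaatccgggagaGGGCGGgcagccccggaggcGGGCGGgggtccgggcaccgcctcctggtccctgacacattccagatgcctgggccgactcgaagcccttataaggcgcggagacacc
The annotated MLPH starts were 841 bp apart, and the MYADM starts 1512 and 1508 bp. The tags were mapped to hg19, for which no annotation was used, so it was not settled which promoter belongs to which site. MLPH promoter 1 held 7 CpG dinucleotides and 45.7% G and C. MLPH promoter 2 held 34 CpG and 72.7% G and C, and the MYADM promoters held 31, 23 and 20 CpG, against a median of 14 over 35116 promoters of the same length. The GC box was found in all 5, with 6 matches in MYADM promoter 2, 3 in MLPH promoter 2, 2 in MYADM promoter 3 and 1 in each of the others. Of all promoters, 45.0% held it. The TATA motif was found once, at position -130 from the start in MYADM promoter 3, and in 11.5% of all promoters. Matches of different motifs did not overlap in these promoters.

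In the time course, 5 sites lay in each locus. The MLPH site with the most tags (6616 over the 14 libraries) was a plus-strand cluster at chr2:238395806-238396083, called the sense site below. The site named in the choosing rule lay on the minus strand at chr2:238395773-238395861, called the antisense site. The start positions of the pair were 104 bp apart and pointed away from each other, and their clusters overlapped by 56 bp on opposite strands. At MYADM, the main site was the cluster at chr19:54372870-54373091, with 6149 tags, and the site named in the rule lay 1839 bp upstream at chr19:54371084-54371184, with 6009 tags, called the upstream site. The other 6 sites were weak. The 3 other MLPH plus-strand sites, 13241 to 30516 bp downstream of the sense site, held 50, 115 and 58 tags, and the 3 other MYADM sites held 94, 314 and 395 tags.

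The MLPH sense site was already transcribed before R1881, and its level in the first 6 h was above 0. It stood at 63.3 and 56.8 RPM at 0 h, 95.9 and 76.0 RPM at 3 h, and 62.7 and 73.5 RPM at 6 h, each pair giving replicates 1 and 2. It was at 173 and 219.7 RPM at 12 h and at 188 and 196 RPM at 18 h. It reached 347 and 459 RPM at 48 h and 449 and 599.8 RPM at 72 h. Every library from 12 h on was above every library up to 6 h, and the 48 h and 72 h libraries were above those of 12 h and 18 h. The mean of the late libraries was 464 ± 104 RPM (SD, n = 4), against 77.0 ± 13.8 RPM (SD, n = 4) at 3 h and 6 h, a ratio of 6.02. The 12 h mean, 196 ± 33.2 RPM (SD, n = 2), was 37.4% of the 72 h mean, 525 ± 106 RPM (SD, n = 2).

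The antisense site at MLPH had 0 tags in all 4 libraries of 3 h and 6 h. At 0 h it had 0 and 3 tags, which is 0 and 0.826 RPM. It was at 7.97 and 9.43 RPM at 12 h, at 0 and 4.97 RPM at 18 h, at 24.5 and 24.7 RPM at 48 h, and at 44.6 and 14.97 RPM at 72 h. The 0 of replicate 1 at 18 h has little weight, since 3 tags, the limit that a count of 0 allows, were worth 19.4 RPM in that library. The late mean was 27.2 ± 12.5 RPM (SD, n = 4), at least 4.14-fold higher than the limit of 3 tags per library, which averaged 6.57 RPM over the 4 early libraries. The antisense site gave a small share of the tags of the pair. Of the tags of both strands, it held 6.58% (16 of 243; 95% Clopper-Pearson interval 3.81 to 10.5%) and 5.11% (92 of 1800; 4.14 to 6.23%) at 48 h, and 9.03% (44 of 487; 6.64 to 11.9%) and 2.43% (65 of 2670; 1.88 to 3.09%) at 72 h. At 12 h it held 4.41% (3 of 68; 0.919 to 12.4%) and 4.12% (24 of 583; 2.66 to 6.06%). Intervals of shares cover counting error only, and tags were not marked by molecular identifiers. The replicates at 72 h differed beyond these intervals.

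**Figure D1:**
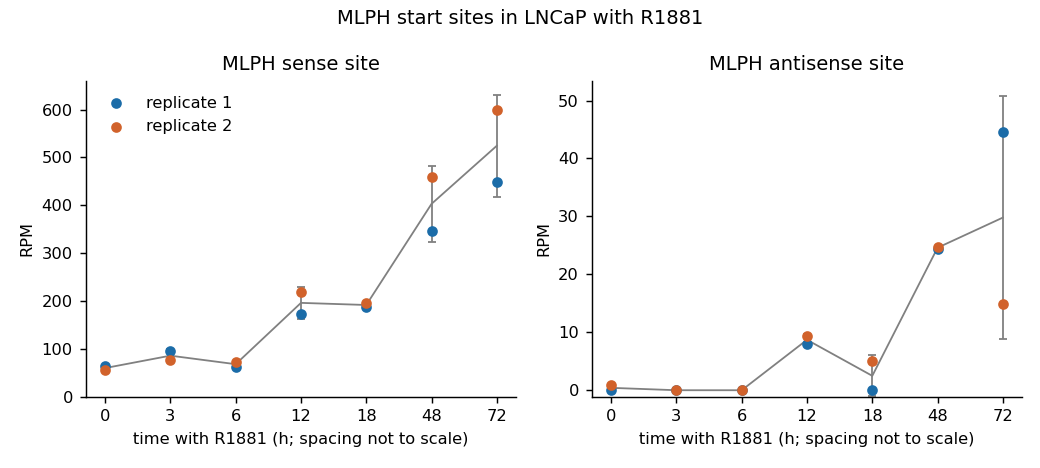
RPM of the MLPH sense site (left) and antisense site (right) in LNCaP at 7 times with R1881. Points are the 2 libraries of each time, the line joins their means and bars are SD (n = 2). The sense site was between 56.8 and 95.9 RPM up to 6 h and between 347 and 599.8 RPM from 48 h on, and the antisense site had 0 tags at 3 h and 6 h.

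Of the 3 followed sites with tags at 3 h and 6 h, the upstream MYADM site had the largest ratio of late to early levels. It stood at 22.9 and 14.3 RPM at 0 h, 27.1 and 7.36 RPM at 3 h, and 17.1 and 2.33 RPM at 6 h. At 12 h it was at 29.2 and 28.3 RPM, and at 18 h at 84.3 and 27.9 RPM. It then stood at 358 and 511 RPM at 48 h and at 298 and 764 RPM at 72 h. The 4 late libraries lay above all others, and the libraries of 0 h and 3 h overlapped. The late mean was 483 ± 208 RPM (SD, n = 4), against 13.5 ± 10.96 RPM (SD, n = 4) at 3 h and 6 h, a ratio of 35.8. The mean at 12 h was 5.42% of that at 72 h, and the mean at 18 h 10.6%.

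The main MYADM site, 1839 bp downstream, did not show the pattern by which the locus had been picked. Replicates 1 and 2 were at 433 and 292 RPM at 0 h, 323 and 249 RPM at 3 h, and 256 and 73.5 RPM at 6 h. They were at 470.4 and 269 RPM at 12 h and at 557 and 109 RPM at 18 h. At 48 h they were at 397 and 229 RPM, and at 72 h at 284 and 244 RPM. The SD between the replicates reached 317 RPM at 18 h, and late and early libraries overlapped. The late mean was 289 ± 76.1 RPM and the early mean 226 ± 107 RPM (SD, n = 4 each), a ratio of 1.28. The lowest values, 73.5 and 109 RPM, were from the replicate 2 libraries of 6 h and 18 h, which stood apart from the rest over all sites.

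**Figure D2:**
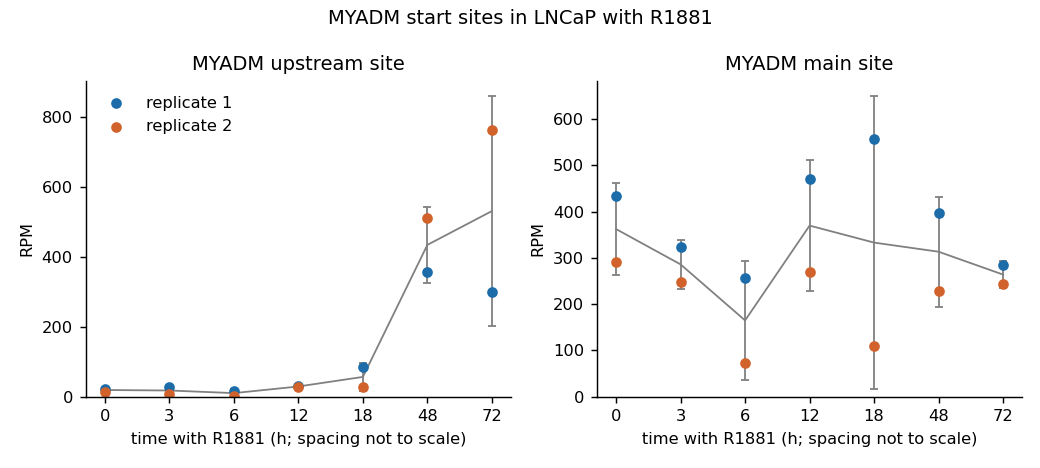
RPM of the MYADM upstream site (left) and main site (right) in LNCaP at 7 times with R1881. Points are the 2 libraries of each time, the line joins their means and bars are SD (n = 2). The upstream site was at or below 84.3 RPM up to 18 h and between 298 and 764 RPM from 48 h on, while the main site ranged from 73.5 to 557 RPM with overlapping times.

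The share of MYADM tags that started at the upstream site does not depend on the library total. It was 4.61% (95% Clopper-Pearson interval 3.11 to 6.55%; 629 tags) and 4.23% (3.18 to 5.52%; 1228 tags) at 0 h, 7.30% (3.95 to 12.2%) and 2.59% (1.57 to 4.01%) at 3 h, and 5.88% (1.23 to 16.2%) and 2.74% (0.751 to 6.87%) at 6 h. It was 5.47% (2.76 to 9.58%) and 8.69% (6.86 to 10.8%) at 12 h and 12.4% (6.76 to 20.2%) and 19.9% (14.9 to 25.7%) at 18 h. At 48 h it was 46.2% (41.7 to 50.6%) and 63.7% (62.0 to 65.5%), and at 72 h 48.5% (44.5 to 52.6%) and 73.1% (71.8 to 74.4%). In both 18 h libraries the interval lay above those of both 0 h libraries, and the late libraries were higher again. A share also rises when the main site is low. In replicate 2 the upstream site was at 28.3 RPM at 12 h and 27.9 RPM at 18 h, while the main site was at 269 and 109 RPM. In replicate 1 the upstream site was at 29.2 and 84.3 RPM and the main site at 470.4 and 557 RPM. The main site held 86.2 to 87.0% of MYADM tags at 0 h and 23.3 to 46.2% at 72 h. The replicates differed beyond counting error at 48 h and 72 h.

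**Figure D3:**
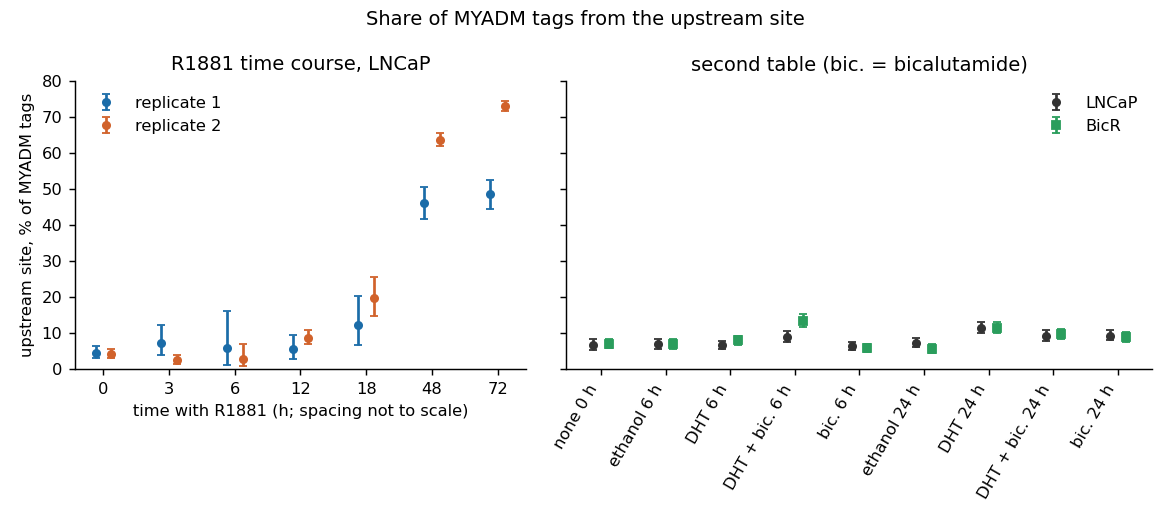
Percent of MYADM tags that started at the upstream site, by library, in the R1881 time course (left) and in the second table (right). Bars are 95% Clopper-Pearson intervals and cover counting error only. The share was 46.2 to 73.1% at 48 h and 72 h of R1881 and 5.71 to 13.4% in all 18 libraries of the second table. It was taken over 5 MYADM sites in the time course and over 3 in the second table. Sites of the second table are listed with a width of 1 bp, and its latest time was 24 h, so the ranges are not like for like.

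The 6 weak sites stayed at or below 33.1 RPM in every library. The site 29407 bp downstream of the MLPH sense site had 100 of its 115 tags in the replicate 2 library of 72 h (23.0 RPM) and 0 tags in the other 72 h library. The site 30516 bp downstream of it had 43 of 58 tags in the same library (9.90 RPM, against 2.03 RPM in replicate 1). The site 13241 bp downstream ranged from 0 to 13.0 RPM with late and early means of 2.73 and 1.87 RPM. At MYADM, the weak sites 191 bp upstream of the main site and 4212 and 4775 bp downstream of it ranged from 0 to 13.0, from 1.86 to 21.2 and from 0 to 33.1 RPM. Their late-to-early ratios were 3.98, 1.84 and 1.84. Of the 4 followed sites, the MLPH antisense site and the MYADM upstream site came closest to the pattern of low early and high late levels. The MLPH sense site was above 0 early and already higher at 12 h, and the MYADM main site did not show it. The rule used these values and named the antisense and upstream sites, so they are described only.

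The 0, 12 and 18 h libraries were not used by the choosing rule, and a comparison of them asks whether the sites had moved before 48 h. The fit took 8 of the 10 sites, leaving out the pair of MLPH sites 29407 and 30516 bp downstream for low counts. All p-values below are from edgeR's quasi-likelihood test with Benjamini-Hochberg adjustment over all sites tested, and a call is an adjusted p under 0.05. At 12 h, 0 of 8 member sites passed, where 0.231% of all sites did. At an unadjusted p under 0.05 there were 2, and DESeq2 called 1, with no adjusted p for 2 of the 8. The log2 difference from 0 h was 1.71 (SE 0.407, adjusted p = 0.120) for the MLPH sense site and 3.80 (SE 0.953, adjusted p = 0.185) for the antisense site. The antisense value rests on 27 tags at 12 h and 3 at 0 h, a pooled RPM ratio of 15.1 with a counting interval of 4.64 to 77.7. The main fit left the replicate numbers out. An alternative fit took them as a pairing, although the labels give them no meaning. With the number as a block both MLPH sites passed, the sense site at 1.70 (adjusted p = 0.0183) and the antisense site at 3.79 (adjusted p = 0.0266). Of the 15999 sites tested, the block called 316 and DESeq2 96, beside 37 in the main fit. DESeq2 gave the sense site an adjusted p of 0.0135, and a fit without the replicate 2 libraries of 6 h and 18 h, chosen after the data were seen, gave it 0.0466. Over all its alternatives the adjusted p of the sense site ranged from 0.0135 to 0.932. The MYADM upstream and main sites were at 0.64 (95% confidence interval -0.90 to 2.19) and 0.02 (-1.35 to 1.39).

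At 18 h, again 0 of 8 passed, where 0.988% of all sites did. There were 3 at an unadjusted p under 0.05, and DESeq2 called 1. The MLPH sense site was at 1.80 (SE 0.413, adjusted p = 0.0518), above 0 h in both replicates. With the replicate block it passed (1.78, adjusted p = 0.00624), as it did with DESeq2 (adjusted p = 0.00327), and over all alternatives its adjusted p ranged from 0.00327 to 0.299. Of the 15999 sites tested, the block called 2082 and DESeq2 485, beside 158 in the main fit. The antisense site was at 2.84 (95% confidence interval 0.51 to 5.17, adjusted p = 0.175), on 8 tags of the replicate 2 library at 18 h and 3 tags at 0 h. Without that 18 h library, 0 tags were left at 18 h and the fitted value turned to -3.13 (adjusted p = 0.872). The MYADM upstream site was at 1.52 (-0.11 to 3.14, adjusted p = 0.274). The main site was at -0.08 (-1.47 to 1.32). The weak site 4212 bp downstream of it stood at 15.8 and 14.6 RPM at 0 h and at 6.48 and 1.86 RPM at 18 h, on 1 and 3 tags. It was at -2.44 (adjusted p = 0.174) and passed as lower with the block (-2.60, adjusted p = 0.0463). Over the 8 sites the median log2 difference was 0.37 at 12 h and 0.85 at 18 h, beside -0.02 and -0.11 over all sites tested. Of the 8 sites, 6 were above 0 at 12 h and 5 at 18 h. The weak site 191 bp upstream of the main site, at 0.18 (SE 1.66), enters the 18 h median. The filter on low counts used all 14 libraries, including the late ones of the choosing rule. With the 0, 12 and 18 h libraries alone it kept 7 member sites. The medians are therefore a description only.

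The choosing rule used no values of the second table, though the members were chosen with earlier results of these data known. This table asks whether DHT moved the same start sites within 24 h, whether the lines differed in this, and what bicalutamide did. Only the sense site was listed for MLPH, and for MYADM the upstream and main sites and the weak site 4775 bp downstream of the main one. The antisense site was not listed. With 1 library per condition, the 6 h and 24 h libraries stood in for replicates, with a term for time in each line.

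In BicR, the MLPH sense site rose with DHT. It was at 47.0 RPM with ethanol and 118 RPM with DHT at 6 h, and at 49.7 and 86.3 RPM at 24 h. Both DHT libraries lay above both ethanol libraries and above the untreated one, at 52.7 RPM. The ethanol mean was 48.4 ± 1.86 RPM and the DHT mean 102 ± 22.3 RPM (SD, n = 2 each), with ratios of 2.51 at 6 h and 1.74 at 24 h. The log2 difference was 1.05 (SE 0.151, adjusted p = 0.00278), and it passed in 9 of 9 alternatives, with log2 differences of 0.78 to 1.29 and adjusted p-values up to 0.0416. It was the 1 call among 4 sites, where 3.41% of all sites passed.

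In LNCaP, the MLPH sense site was at 50.9 RPM with ethanol and 50.9 RPM with DHT at 6 h, and at 51.3 and 59.5 RPM at 24 h. The untreated library was at 41.0 RPM. The log2 difference was 0.15 (95% confidence interval -0.18 to 0.48), and 0 of 4 sites passed, with 0 below 0.05 before adjustment and 0 in DESeq2, where 0.129% of all sites passed. KLK3, a classical androgen-induced gene that encodes prostate-specific antigen, was at 443 RPM with ethanol and 1533 RPM with DHT at 6 h in these LNCaP libraries, and at 104 and 441 RPM in BicR. The DHT response of the MLPH sense site in BicR minus that in LNCaP was 0.89 (95% confidence interval 0.43 to 1.36), with an unadjusted p of 0.00126 and an adjusted p of 0.634. Of the 4 sites 0 passed this test of the difference, 1 was below 0.05 before adjustment, and DESeq2 called 0. Over all sites 0% passed in edgeR (754 of 13214 at an unadjusted p under 0.05) and DESeq2 called 4.

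The MYADM upstream site in BicR was at 13.4 RPM with ethanol and 21.6 RPM with DHT at 6 h, and at 11.5 and 25.8 RPM at 24 h. The DHT libraries lay above the ethanol and untreated (14.3 RPM) libraries. The log2 difference was 0.91 (SE 0.280, adjusted p = 0.114), and without the 6 h BicR library that received both drugs it was 0.90 with an adjusted p of 0.0386. In LNCaP it was at 15.3 RPM with ethanol and 14.1 RPM with DHT at 6 h, and at 17.2 and 25.1 RPM at 24 h, a log2 difference of 0.29 (95% confidence interval -0.31 to 0.89). The difference between the lines was 0.62 (-0.23 to 1.48). The share of MYADM tags at the upstream site at 24 h was 7.30% (6.16 to 8.58%) with ethanol and 11.5% (10.1 to 13.1%) with DHT in LNCaP, and 5.71% (4.60 to 7.01%) and 11.5% (9.99 to 13.2%) in BicR. With bicalutamide alone at 24 h the share was 9.33% (7.97 to 10.8%) in LNCaP and 8.87% (7.54 to 10.3%) in BicR. The interval with bicalutamide alone lay above that of ethanol in BicR and overlapped it in LNCaP. With DHT and bicalutamide the 24 h share was 9.27% (7.85 to 10.9%) in LNCaP and 9.74% (8.38 to 11.2%) in BicR. At 6 h the shares with ethanol and with DHT were 6.92% and 6.75% in LNCaP and 6.94% and 8.0% in BicR, with overlapping intervals.

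The main MYADM site was between 157 and 226 RPM in the 18 libraries of this table. It was at 186 RPM with ethanol and 174 RPM with DHT at 6 h in LNCaP and at 196 and 171 RPM at 24 h. In BicR it was at 160.3 and 226 RPM at 6 h and at 169.6 and 174 RPM at 24 h. The log2 differences with DHT were -0.10 (95% confidence interval -0.39 to 0.18) in LNCaP and 0.24 (-0.05 to 0.52) in BicR. The weak site downstream of it ranged from 17.8 to 26.5 RPM, with differences of 0.09 (-0.30 to 0.47) and 0.23 (-0.16 to 0.62).

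**Figure D4:**
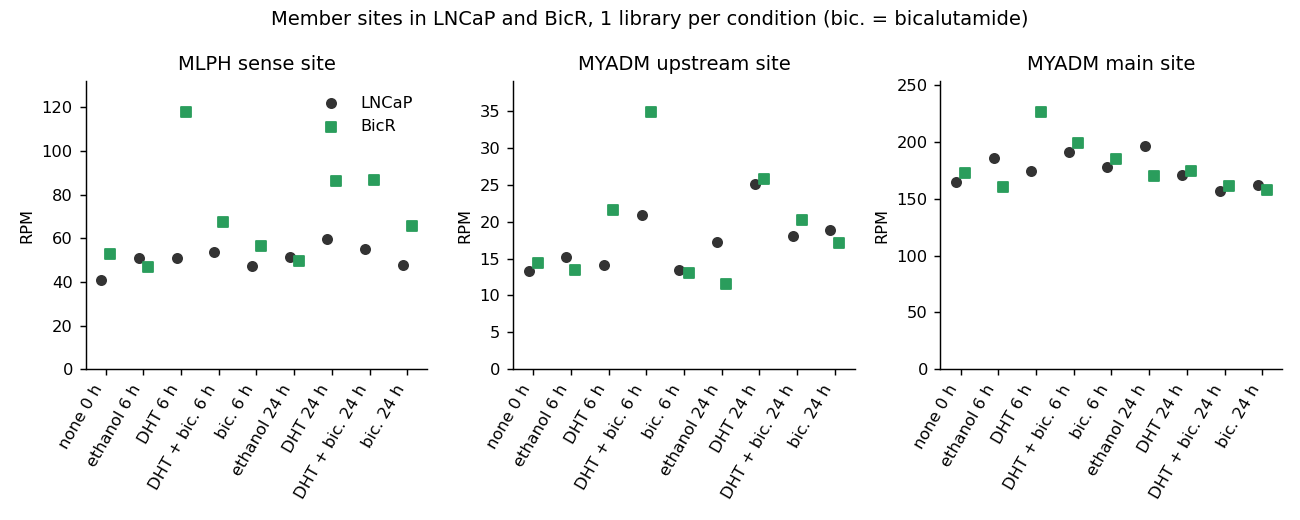
RPM of the MLPH sense site, the MYADM upstream site and the MYADM main site in LNCaP (circles) and BicR (squares), 1 library for each condition. The MLPH sense site was at 118 and 86.3 RPM with DHT in BicR, against 47.0 and 49.7 RPM with ethanol, and the MYADM upstream site was highest, at 34.9 RPM, in BicR with DHT and bicalutamide at 6 h.

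Bicalutamide alone moved no member site past the threshold. In LNCaP the MLPH sense site was at 47.3 RPM at 6 h and 47.9 RPM at 24 h, a log2 difference from ethanol of -0.06 (95% confidence interval -0.39 to 0.28). In BicR it was at 56.4 and 65.6 RPM, a difference of 0.39 (0.06 to 0.71, adjusted p = 0.638). The MYADM upstream site was at 13.4 and 18.8 RPM in LNCaP and at 13.0 and 17.1 RPM in BicR. The counts were 0 of 4 in each line, with 0 and 1 below 0.05 before adjustment and 0 in DESeq2, where 0.00757% of all sites passed in LNCaP and 0.197% in BicR.

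With bicalutamide added to DHT, the MLPH sense site in BicR was at 67.6 RPM at 6 h and 86.8 RPM at 24 h, against 118 and 86.3 RPM with DHT alone. The value was lower at 6 h and about the same at 24 h, and the log2 difference was -0.36 (95% confidence interval -0.68 to -0.03, adjusted p = 0.551). Without the 24 h library of DHT with bicalutamide, the difference was -0.63 and passed as lower (adjusted p = 0.0384), resting then on the 6 h library with the high VIM level. Without that 6 h library it was -0.13 (adjusted p = 1.0). In LNCaP it was at 53.8 and 54.9 RPM, a difference from DHT of 0.01 (-0.32 to 0.34). The MYADM upstream site was at 34.9 and 20.2 RPM in BicR, a difference of 0.20 (-0.38 to 0.78). Without the 6 h library of both drugs the sign turned, to -0.25 (adjusted p = 1.0). It was at 20.9 and 18.0 RPM in LNCaP, a difference of 0.06 (-0.53 to 0.65). Its highest level and share in BicR (13.4%, interval 11.6 to 15.4%) came from the library with VIM at 162 RPM, and the part of that library's state in the value was not tested. Of 4 sites 0 passed in each line, with 0 in LNCaP and 1 in BicR below 0.05 before adjustment and 0 in DESeq2. Over all sites 0% passed in LNCaP (243 at an unadjusted p under 0.05, 0 by DESeq2) and 0.144% in BicR.

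With ethanol no member site differed past the threshold between the lines. The log2 difference of BicR from LNCaP was 0.07 (95% confidence interval -0.31 to 0.44) for the MLPH sense site, -0.04 (-0.73 to 0.66) for the MYADM upstream site and -0.02 (-0.34 to 0.30) for the main site. None of the 4 sites passed, with 0 below 0.05 before adjustment and 0 in DESeq2, where 5.46% of all sites did. Over all sites 334 were higher and 388 lower in BicR, and with the deposited RPM totals in place of TMM 137 were higher and 586 lower.

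**Figure D5:**
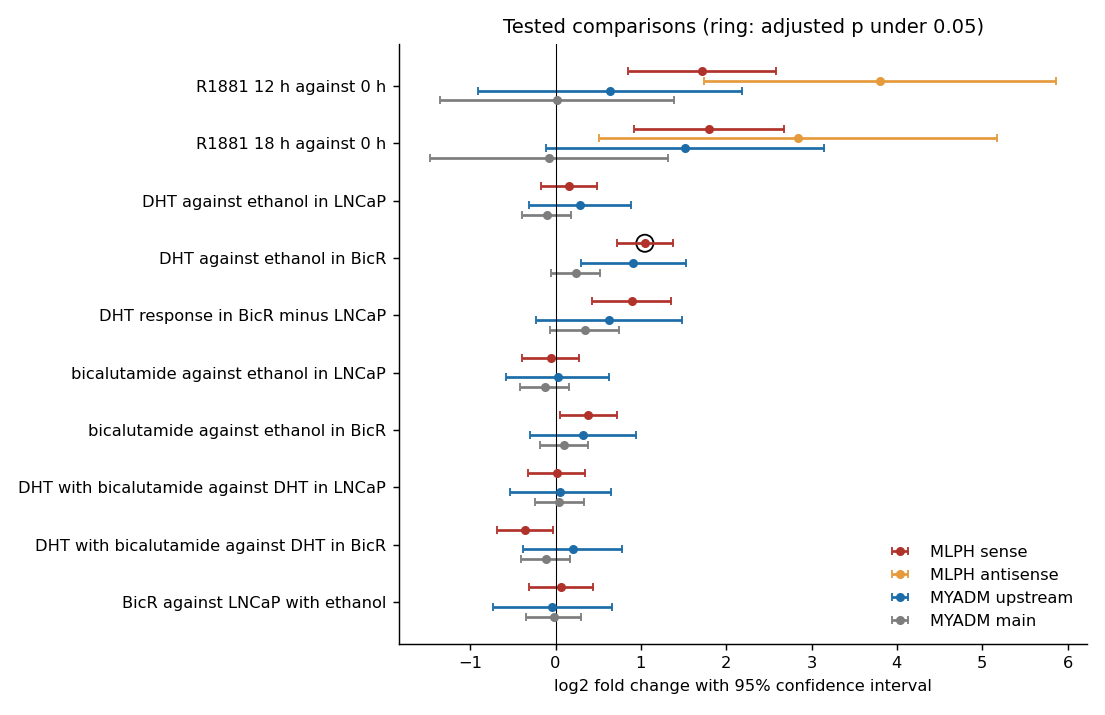
Log2 fold changes with 95% confidence intervals from edgeR for the 4 sites followed, in the 10 comparisons that the choosing rule did not use. Rings mark an adjusted p under 0.05, which the MLPH sense site reached with DHT in BicR (1.05, interval 0.72 to 1.38).

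Genes of RAB and myosin transport, in which melanophilin acts, and relatives of MYADM with MARVEL domains were looked up in the same hand-set windows. Both lists were drawn up with earlier results of these data known. The transport list held RAB27A, RAB27B, MYO5A, MYO5C, MYRIP, EXPH5, SYTL1, SYTL2, SYTL4 and RAB17. The MARVEL list held MAL, MAL2, PLLP, CMTM3, CMTM4, CMTM6, CMTM7, CMTM8, OCLN, MARVELD2, SYPL1 and SYNGR2. Sites were listed for 17 of the 22 genes in the time course, and not for SYTL4, MAL, CMTM3, CMTM7 and CMTM8. In the late against the early libraries, 1 of 9 transport sites and 0 of 10 MARVEL sites tested passed, where 5.95% of all sites did. The median log2 differences were 0.41 and 0.26, beside 0.04 over all sites. The call was a site of SYTL1, which encodes a RAB27 effector, at 42.0 ± 9.78 RPM late and 12.5 ± 2.32 RPM early (SD, n = 4 each). Its log2 difference was 1.63 (SE 0.391, adjusted p = 0.0325). It missed the threshold when any of 6 libraries was left out, namely both of 3 h, both of 48 h, and the replicate 2 libraries of 6 h and 72 h (adjusted p 0.0529 to 0.137). RAB27B, a close relative of RAB27A, was at 2.75 ± 1.38 RPM late and 10.3 ± 4.28 RPM early (adjusted p = 0.0921). RAB27B passed as lower in 2 of 13 alternatives. These were the replicate block (adjusted p = 0.0483), which called 2031 of the 13929 sites tested, and the fit without the replicate 1 library of 6 h. That fit called 2713 of 16040 sites. RAB17, an epithelial RAB GTPase whose gene lies beside MLPH, was at 21.2 ± 5.68 and 9.58 ± 4.26 RPM (log2 difference 1.14, adjusted p = 0.127). Neighbouring plus-strand sites at 238499848 and 238536237 of chromosome 2 were at -1.81 (adjusted p = 0.0774) and 0.11 (adjusted p = 0.897). RAB27A was at 19.4 ± 6.05 RPM late and 17.2 ± 4.28 RPM early, a log2 difference of 0.08. The 2 sites of MYO5A, which encodes myosin Va, were at -0.11 and 0.88, and none of these sites passed. The list genes with the most tags, SYNGR2, SYPL1 and MAL2, had log2 differences of 0.69, 0.11 and 0.40 at their stronger sites, none past the threshold.

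In the second table, 19 sites of both lists were tested. With DHT in LNCaP 0 of 19 passed by edgeR, where 0.129% of all sites did. There were 5 at an unadjusted p under 0.05, DESeq2 called 0, and the lowest adjusted p by edgeR was 0.527, at a MARVELD2 site. In BicR 2 of 9 transport sites and 1 of 10 MARVEL sites passed as lower and 0 of 19 as higher, where 3.41% of all sites passed, 294 higher and 156 lower. SYTL2, which encodes another RAB27 effector, was at 9.12 ± 2.22 RPM with DHT and 30.6 ± 5.77 RPM with ethanol (SD, n = 2 each), a log2 difference of -1.78 (adjusted p = 0.000902) that passed in 9 of 9 alternatives. EXPH5, also a RAB27 effector, was at 10.9 ± 4.07 and 19.7 ± 2.56 RPM (-0.92, adjusted p = 0.0449). OCLN, which encodes the tight junction protein occludin, was at 35.5 ± 4.79 and 61.3 ± 7.16 RPM (-0.82, adjusted p = 0.0201). EXPH5 missed the threshold without the 6 h ethanol library or either DHT library (adjusted p 0.167 to 0.293), and OCLN likewise (adjusted p 0.126 to 0.157). EXPH5 also missed it with DESeq2 (adjusted p = 0.0701) and with the deposited RPM totals (0.0666), and both genes missed it without the time term (0.266 and 0.141). SYNGR2, which encodes a synaptogyrin, was at 254 ± 10.6 RPM with DHT and 172 ± 2.31 RPM with ethanol (SD, n = 2 each), a log2 difference of 0.54 (adjusted p = 0.0743). It passed as higher in 3 of 9 alternatives, namely DESeq2 (adjusted p = 0.0425), the deposited RPM totals (0.0430) and the fit without the 6 h BicR library that received both drugs (0.0187), and was chosen for naming here after its values were seen. RAB27A did not pass in either line. In BicR it was at 8.9 ± 3.4 RPM with DHT and 5.1 ± 0.11 RPM with ethanol (log2 difference 0.72, adjusted p = 0.250). In LNCaP it was at 10.0 ± 2.76 and 6.5 ± 0.44 RPM (0.64, adjusted p = 0.848; SD, n = 2 each). Of the 9 transport sites tested, 4 were above 0 in each line. The difference between the lines was not tested for these genes.

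The sites whose pattern was most like that of each followed member are given by position, since the tables pair no names with sites. Over the 14 libraries of the time course, log2(RPM + 1) of the MLPH antisense site correlated most with the sites at chr19:35607148-35607258 (plus strand, r = 0.925) and chr15:45003653-45003814 (plus strand, r = 0.910), out of 9906 sites with a mean of at least 10 RPM. The first of these stood at a mean of 65.4 RPM at 0 h and 299 RPM at 72 h, and the second at 281 and 1530 RPM. The MYADM upstream site correlated most with chr17:1389004-1389106 (minus strand, r = 0.937) and chr6:31938749-31938882 (minus strand, r = 0.935). Their rises were smaller, from means of 22.6 and 4.56 RPM at 0 h to 60.6 and 23.5 RPM at 72 h, against 18.6 and 531 RPM for the upstream site. The correlation of the upstream site with the MLPH sense site was 0.895, and with its own main site 0.344. The MLPH sense and antisense sites correlated at 0.888. Over the 18 libraries of the second table, the MLPH sense site was most like positions 77001577 on the minus strand of chromosome 17 (r = 0.935) and 182992554 on the plus strand of chromosome 1 (r = 0.913), and the MYADM main site most like 77005845 on the minus strand of chromosome 17 (r = 0.856) and 19638596 on the minus strand of chromosome 1 (r = 0.822). These correlations are a description, since the libraries share depth and time.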

How the data were processed

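CAGE tags were counted in 32 libraries of LNCaP and BicR cells. Per the file headers, each deposited table gives raw counts per start site and a normalized value. The deposited counts are whole tag counts. The deposited RPM values are those counts times 1 factor per library, whose implied total is larger than the table's sum (75.57 to 90.14% of it lay in the table). The build was hg19, per the submitters' processing notes. The aligner, the cluster caller and the filters are not given in the sources used here. The members and gene lists were chosen with earlier results of these data known.

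Levels are the deposited RPM. Tests used the counts in R 4.3.3 with edgeR 4.0.16: filterByExpr with a minimum count of 10, TMM, the quasi-likelihood F test and Benjamini-Hochberg adjustment over all sites (15999 tested in the time course, 13929 for late against early, 13214 in the second table). The time course had 1 coefficient per time over 14 libraries. The second table had 1 per line and treatment over 16 libraries, plus 24 h against 6 h in each line. SE is the log2 difference over the square root of F. The scripts were tested on simulated data. Alternatives were DESeq2 1.42.0, the deposited RPM totals, no filter, the replicate block, other library subsets, no time term and leaving out each library.

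Each time has a replicate 1 and a replicate 2. Between all 21 pairs of times, the differences of replicate 1 from replicate 2 were correlated across 13837 sites (lowest 0.146, median 0.339, highest 0.578). The main fits did not use the replicate number, so their p-values take no account of these correlations. An alternative fit took the number as a block, that is, as a pairing, although the labels give it no meaning. At every time replicate 1 held fewer tags than replicate 2, and the part of depth in these correlations was not tested.

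Windows of list and marker genes were set by hand on hg19 from general knowledge, with 1000 bp added on each side. Their chromosomes matched the RefSeq gene table for 22 of 22 list genes and for the 4 luminal and 5 other markers used. Other markers of the fixed list are not reported here. In the time course 13 of the 17 list genes with a site had one within 100 bp of the window's start. Both member symbols matched the RefSeq promoters of GRCh38.p14, and no coordinates were converted. The text names every member, with values in each library for those with the most tags per locus and strand, those in the choosing rule and those that passed, and list genes that passed plus up to 3 by tags. RAB17, RAB27A, MYO5A and MARVELD2 are named outside that rule.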

Additional observations from a re-analysis of the deposited data

How the results depend on the processing

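Counts of member sites called moved in these cases. At 12 h of R1881 the count was 0 of 8 and became 1 with DESeq2, 2 with the replicate block and 1 without the replicate 2 libraries of 6 h and 18 h, an alternative chosen after the data were seen. At 18 h it was 0 and became 1 with DESeq2 and 2 with the block. For the transport and MARVEL lists, late against early, it was 1 and became 2 with the block and 0 without the 6 h library of replicate 2, and it ranged from 0 to 2 when each library was left out. For DHT in BicR it was 1 and became 2 without the library of DHT with bicalutamide at 6 h. For DHT with bicalutamide against DHT in BicR it was 0 and ranged from 0 to 1 with each library left out. The block changed no other call. The cause of these moves was not tested. No called site changed direction under any alternative run. Of 522 single-site alternatives 491 kept their side of the threshold, 45 of them with the other sign and no call in either fit, 17 lost a call and 14 gained one. Over all sites, calls at 12 h were 37 with edgeR, 96 with DESeq2 and 263 higher and 53 lower with the block. At 18 h they were 158 with edgeR, 485 with DESeq2, and 1022 higher and 1060 lower with the block. Late against early they were 461 higher and 368 lower, and with the block 1157 and 874. In the second table edgeR and DESeq2 called 17 and 54 sites for DHT in LNCaP, 26 and 78 for bicalutamide in BicR, and 19 and 6 for DHT with bicalutamide against DHT in BicR. Without the time term the calls were 5 for DHT in LNCaP, 138 higher and 41 lower for DHT in BicR, and 0 for bicalutamide and for its addition to DHT in BicR. Without the 6 h BicR library that received both drugs, DHT gave 54 higher and 8 lower in LNCaP and 443 and 313 in BicR, bicalutamide gave 79 and 37 in BicR, its addition to DHT gave 0 in BicR, and BicR against LNCaP gave 627 and 750. With 0, 12 and 18 h libraries alone, calls were 9 higher at 12 h and 27 higher and 5 lower at 18 h. Without the replicate 2 libraries of 6 h and 18 h they were 90 and 7 at 12 h, 38 and 1 at 18 h and 229 and 150 late against early. Without a filter they were 149 and 92 at 18 h and 688 and 586 late against early. Scaling to the deposited RPM totals shifted the median of all sites by -0.127 at 18 h and by -0.131 for BicR against LNCaP. Depth limits the replicate 1 libraries of 6 h and 18 h most, where 3 tags were worth 17.1 and 19.4 RPM.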
